A study of Mus musculus with 21 samples.

Results

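Transcripts of 9 enzymes of the tricarboxylic acid cycle were followed in 2 mouse tumor models and in normal muscle: Cs, Idh3a, Idh3b, Idh3g, Ogdh, Suclg1, Sucla2, Fh1 and Mdh2. The members were taken by gene symbol, with all 16 probes that the platform annotation assigns to them, out of 19057 genes with a named probe. Of the 9 genes, 8 passed the detection rule and were tested among 11034 genes, since the single probe of Sucla2 did not pass. RNA was hybridised to Illumina bead arrays, 1 array per sample and 21 in all. The first group was 15 tumors of the genotype aP2-Cre/+;SmoM2/+, whose Cre recombinase is under control of the aP2 (Fabp4) promoter; aP2 binds fatty acids in adipocytes but is not restricted to them. The second was 3 tumors of the genotype Myogenin-Cre/+;SmoM2/+, whose Cre is under control of the promoter of Myogenin, which encodes a myogenic regulatory factor. The 3 normal samples, labelled SmoM2/+, were of the sternocleidomastoid, a muscle of the neck. SmoM2 is an activated form of Smoothened, the membrane protein that switches on Hedgehog signalling, and its allele was thus carried by the muscle donors too, with no Cre named. The labels give a mixed background of C57Bl/6 and 129X1/SvJ for the mice and no age.

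The tricarboxylic acid cycle runs in the mitochondrial matrix and oxidises the acetyl groups that come from sugars, fatty acids and some amino acids. It passes the electrons to NADH and reduced FAD for the respiratory chain and supplies carbon skeletons for biosynthesis. Working skeletal muscle and brown fat are known for a high content of its enzymes. Citrate synthase (Cs) joins acetyl-CoA to oxaloacetate. Isocitrate dehydrogenase 3, an NAD-dependent enzyme built of a catalytic alpha subunit (Idh3a) with beta and gamma subunits (Idh3b, Idh3g), makes alpha-ketoglutarate. Ogdh encodes the first component of the alpha-ketoglutarate dehydrogenase complex. Succinyl-CoA ligase pairs the alpha subunit Suclg1 with Sucla2 in its ADP-forming version or with Suclg2 in its GDP-forming one. Fumarase (Fh1) hydrates fumarate, and mitochondrial malate dehydrogenase (Mdh2) returns malate to oxaloacetate.

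RefSeq promoter windows, 250 bases before to 50 bases after an annotated transcript start on GRCm38.p6, were found for 8 of the 9 members, without Idh3a. They were searched on both strands for 4 motifs of factors known to drive mitochondrial genes: the ERR site TCAAGGTCA, the GABP site CCGGAAG, the NRF1 core GCATGCGC and the YY1 site AAGATGGC. The 3 members shown are those with a match, and capitals mark the motifs. The motifs do not overlap. The Idh3b window is chr2:130284402-130284701 on the minus strand and holds the GABP site as its reverse complement, the Idh3g window is chrX:73786848-73787147 on the minus strand and holds the YY1 and the GABP site, and the Ogdh window is chr11:6292308-6292607 on the plus strand, 1 of 6 windows of that gene, and holds the NRF1 core.
Idh3b: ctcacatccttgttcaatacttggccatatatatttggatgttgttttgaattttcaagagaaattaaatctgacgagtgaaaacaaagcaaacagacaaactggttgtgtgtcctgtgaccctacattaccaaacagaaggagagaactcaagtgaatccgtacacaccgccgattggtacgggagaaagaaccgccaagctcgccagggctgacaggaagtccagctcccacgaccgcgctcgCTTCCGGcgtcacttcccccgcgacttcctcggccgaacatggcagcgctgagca
Idh3g: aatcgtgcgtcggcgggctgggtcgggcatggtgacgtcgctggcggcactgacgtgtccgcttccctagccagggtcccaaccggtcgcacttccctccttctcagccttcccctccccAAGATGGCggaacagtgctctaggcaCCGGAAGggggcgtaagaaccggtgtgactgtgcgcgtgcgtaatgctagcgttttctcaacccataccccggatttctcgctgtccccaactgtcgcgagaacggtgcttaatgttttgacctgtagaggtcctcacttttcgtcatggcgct
Ogdh: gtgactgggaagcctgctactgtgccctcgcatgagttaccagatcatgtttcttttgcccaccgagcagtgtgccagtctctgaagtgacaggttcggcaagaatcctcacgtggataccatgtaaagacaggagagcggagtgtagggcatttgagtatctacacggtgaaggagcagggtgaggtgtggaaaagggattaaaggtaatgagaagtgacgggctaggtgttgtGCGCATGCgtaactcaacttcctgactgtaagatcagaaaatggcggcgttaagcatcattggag

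The GABP site was in the windows of 2 of 8 members and of 9.12% of the 27025 genes with a window. The NRF1 core was in 1 of 8 and 2.8%, and the YY1 site in 1 of 8 and 2.88%. Members were counted over all their windows, while the shares over all genes count only the first listed window of each gene. The first listed window of Ogdh holds no NRF1 core, so its match would not count by the rule used for all genes. The ERR site was in 0 of 8 and 0.407%. These matches describe letters in these windows and were not set against any binding data.

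The share of probes with a detection p-value under 0.01 lay between 32.0% and 39.8% on the 21 arrays. In the authors' normalized table the arrays fall into 5 sets, the arrays of a set sharing the same highest value. Each set was therefore taken as normalized together, which was inferred from the values and not read from a label. Of these sets, 1 holds aP2-Cre tumors 128, 135 and 140 and the muscle arrays. Another holds aP2-Cre tumors 89, 90 and 95 beside the Myogenin-Cre tumors, and 3 sets have aP2-Cre tumors only. Beside muscle fibre markers, the samples labelled muscle also held Ucp1, the transcript that defines brown fat, detected on 3 of 3 arrays at a mean level of 11.42. The muscle samples are numbered 1 to 3 in the labels, and nothing says whether each is another animal. A single estimate of spread, pooled over the 3 groups, underlies the p-values, so those against muscle may leave out the spread between animals. Levels are normalized log2 intensities, each from a gene's brightest probe, and a probe's level cannot be set against that of another probe. Because the samples are bulk tissue, fewer cells of a type and less RNA per cell cannot be told apart.

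All 8 tested members were lower in aP2-Cre tumors than in muscle, where 29.8% of all tested genes were called lower (limma, adjusted p under 0.05). The log2 changes lay between -2.32 and -1.04, with a median log2 change of -1.80 against 0.09 over all genes, and in all 8 every tumor array lay below every muscle array, which was so for 22.9% of all genes. In Myogenin-Cre tumors, 7 of the 8 were called lower than in muscle, where 23.9% of all genes were, with a median log2 change of -1.07 against 0.06 over all genes, and in all 8 every tumor array again lay below every muscle array, as in 30.4% of all genes. The mean level was ordered aP2-Cre tumors, Myogenin-Cre tumors, muscle from low to high in all 8. Both comparisons use the same 3 muscle arrays.

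**Figure D1:**
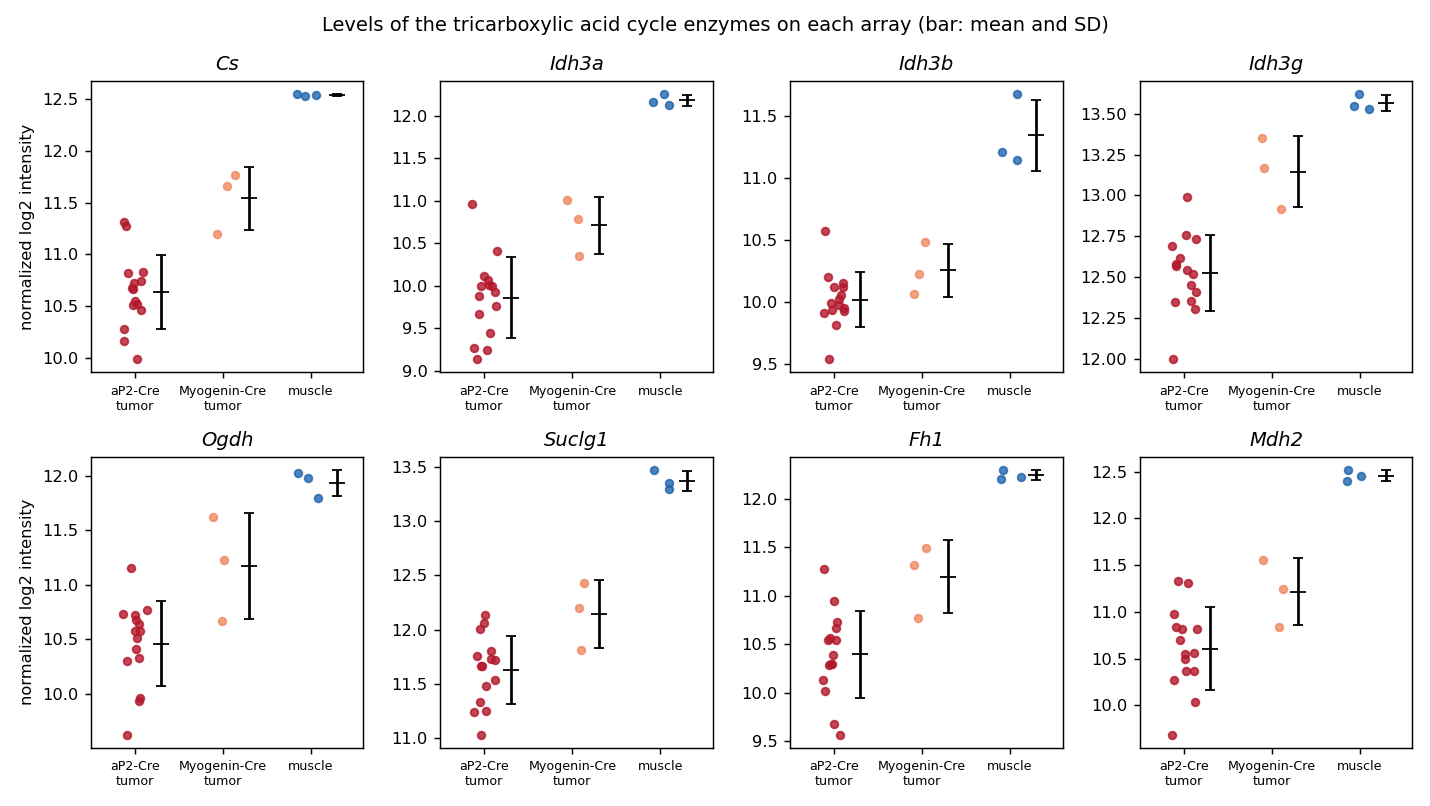
Normalized log2 intensity (vertical axis, not starting at 0) of the 8 tested members on every array: 15 aP2-Cre tumors, 3 Myogenin-Cre tumors and 3 muscle samples, with the mean and SD beside the points. In each panel all tumor arrays lie below all muscle arrays, and the 2 kinds of tumor overlap.

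Cs, at the entry of the cycle, had levels of 9.99, 10.67 and 11.32 (lowest, median and highest of 15) in aP2-Cre tumors, of 11.77, 11.20 and 11.66 in Myogenin-Cre tumors 41, 42 and 43, and of 12.54, 12.53 and 12.54 in muscle samples 1, 2 and 3. The muscle samples were nearly equal, and every tumor lay at least 0.76 below them. Cs fell 3.74-fold in aP2-Cre tumors (log2 change -1.90, SE 0.20, limma adjusted p = 4.64e-08) and 1.99-fold in Myogenin-Cre tumors (log2 change -0.996, SE 0.26, limma adjusted p = 0.00291), against muscle.

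Idh3a had the largest change of the 8 in aP2-Cre tumors. Its levels were 9.14, 9.93 and 10.96 (lowest, median, highest) in aP2-Cre tumors, 11.004, 10.35 and 10.78 in Myogenin-Cre tumors 41, 42 and 43, and 12.16, 12.13 and 12.25 in the muscle samples. The highest tumor was 1.12 below the lowest muscle sample. Idh3a fell 4.99-fold in aP2-Cre tumors (log2 change -2.32, SE 0.26, limma adjusted p = 1.04e-07) and 2.77-fold in Myogenin-Cre tumors (log2 change -1.47, SE 0.33, limma adjusted p = 0.000988).

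Idh3b had 9.54, 9.997 and 10.57 in aP2-Cre tumors, 10.23, 10.48 and 10.06 in Myogenin-Cre tumors 41, 42 and 43, and 11.21, 11.68 and 11.15 in the muscle samples. All Myogenin-Cre tumors lay within the range of the aP2-Cre tumors, and both kinds were below muscle. The fall was 2.50-fold in aP2-Cre tumors (log2 change -1.32, limma adjusted p = 6.33e-08) and 2.12-fold in Myogenin-Cre tumors (log2 change -1.09, limma adjusted p = 5.2e-05). Idh3g, read by the brightest probe of the 8, had 12.002, 12.54 and 12.99 in aP2-Cre tumors, 13.17, 12.92 and 13.35 in Myogenin-Cre tumors, and 13.55, 13.62 and 13.53 in muscle. The smallest of the 8 changes was that of Idh3g: 2.05-fold lower in aP2-Cre tumors (log2 change -1.04, limma adjusted p = 8.76e-07), and in Myogenin-Cre tumors a log2 change of -0.42 that did not pass (limma adjusted p = 0.051), although none of these tumors overlapped muscle.

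The probes of the isocitrate dehydrogenase 3 subunits changed unequally. On each array the level of Idh3a was subtracted from that of another subunit. The value of such a difference includes the brightness of the probes, so only its shift between groups is read. The shift still includes how strongly each probe responds. In aP2-Cre tumors against muscle, the 2 probes of Idh3g gave log2 changes of -1.04 and -1.68, and those of Idh3a -2.32 and -2.98. The part of the probes in the shifts was not tested. Idh3g minus Idh3a averaged 2.67 ± 0.29 in aP2-Cre tumors (SD, n = 15) and 1.39 ± 0.11 in muscle (SD, n = 3), a shift of 1.28 with no overlap between arrays (exact permutation test, two-sided, p = 0.00123, the smallest this design gives, adjusted over 4 tests p = 0.0049). Idh3b minus Idh3a averaged 0.16 ± 0.55 in aP2-Cre tumors and -0.83 ± 0.34 in muscle, a shift of 0.995 with overlapping arrays (exact permutation test, two-sided, p = 0.0098, adjusted p = 0.0196). With the second probe of Idh3g in place of its brightest, an alternative chosen after seeing the data, the Idh3g shift was 0.64 (exact permutation test, two-sided, adjusted p = 0.0049). With the second probes of all 3 subunits the shifts were 1.30 for Idh3g and 1.94 for Idh3b (exact permutation tests, two-sided, adjusted p = 0.00245 for both). The size of the shift thus varied with the probe, while Idh3a was the lower one, relative to both partners, in aP2-Cre tumors with each of these probes. The second probes of Idh3a and Idh3b were near background in aP2-Cre tumors, at means of 5.56 and 5.58, detected on 12 and 13 of 15. Their means in muscle were 8.54 and 6.62, and the part of the background in the shift of 1.94 was not tested. In Myogenin-Cre tumors the differences averaged 2.43 ± 0.24 for Idh3g and -0.45 ± 0.51 for Idh3b (SD, n = 3). Between the 2 kinds of tumor they did not pass (exact permutation tests, adjusted p = 0.221 for Idh3g and 0.129 for Idh3b), and 3 Myogenin-Cre tumors against 3 muscle samples cannot go below an exact p of 0.10.

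Ogdh had 9.62, 10.57 and 11.15 in aP2-Cre tumors, 11.62, 10.66 and 11.23 in Myogenin-Cre tumors 41, 42 and 43, and 11.80, 11.98 and 12.02 in muscle. Myogenin-Cre tumor 41 was 0.17 below the lowest muscle sample, the smallest gap of the 8 genes in that comparison. Ogdh fell 2.78-fold in aP2-Cre tumors (log2 change -1.47, limma adjusted p = 7.54e-06) and 1.70-fold in Myogenin-Cre tumors (log2 change -0.76, limma adjusted p = 0.0355). The call in Myogenin-Cre tumors was lost without muscle sample 2 (adjusted p = 0.0804), muscle sample 3 (0.0923), tumor 42 (0.196) or tumor 43 (0.0594), each from limma. It was also lost with median centring (limma adjusted p = 0.0699), with the authors' normalized values (0.0562) and with no detection filter (0.0512).

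Suclg1 had 11.03, 11.67 and 12.13 in aP2-Cre tumors, 12.43, 11.81 and 12.20 in Myogenin-Cre tumors, and 13.35, 13.29 and 13.47 in muscle. Both kinds of tumor were well apart from muscle, and it fell 3.35-fold in aP2-Cre tumors (log2 change -1.74, limma adjusted p = 4.15e-08) and 2.34-fold in Myogenin-Cre tumors (log2 change -1.22, limma adjusted p = 0.000195). The single probe of Sucla2, the partner of Suclg1 in the ADP-forming ligase, was detected on 1 of 21 arrays, muscle sample 2, where its level was 5.87 with a detection p of 0.0032. The other arrays were not above background, at 4.46 to 5.12 in aP2-Cre tumors, 4.76, 4.62 and 4.71 in Myogenin-Cre tumors, and 5.19 and 5.57 in muscle samples 1 and 3, so no fold is given.

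Fh1 had 9.57, 10.39 and 11.27 in aP2-Cre tumors, 11.50, 10.78 and 11.32 in Myogenin-Cre tumors, and 12.23, 12.30 and 12.20 in muscle. It fell 3.60-fold in aP2-Cre tumors (log2 change -1.85, limma adjusted p = 1.15e-06) and 2.06-fold in Myogenin-Cre tumors (log2 change -1.05, limma adjusted p = 0.00905), a call lost without tumor 42 (log2 change -0.84, limma adjusted p = 0.0577). Mdh2, at the last step, had 9.69, 10.56 and 11.33 in aP2-Cre tumors, 11.56, 10.84 and 11.24 in Myogenin-Cre tumors, and 12.46, 12.39 and 12.52 in muscle. It was 3.60-fold lower in aP2-Cre tumors (log2 change -1.85, limma adjusted p = 9.57e-07) and 2.37-fold lower in Myogenin-Cre tumors (log2 change -1.24, limma adjusted p = 0.00236). Tumor 42 was the lowest of the 3 Myogenin-Cre tumors in 7 of the 8 genes and the highest in Idh3b.

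The comparison with muscle held where arrays of 1 normalization set were used alone. Over the 3 aP2-Cre tumors that share a set with muscle, all 8 members were again lower, with log2 changes between -2.19 for Idh3a and -1.02 for Idh3g (limma adjusted p at most 0.000354). In that set 3108 of 11034 genes were called lower. No set holds both Myogenin-Cre tumors and muscle. With the set as a covariate, which links them through the aP2-Cre tumors, 6 of 8 members were called lower, without Cs (log2 change -0.83, limma adjusted p = 0.0512) and Idh3g (log2 change -0.52, limma adjusted p = 0.124). With that covariate 2005 of 11034 genes were called lower in Myogenin-Cre tumors.

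Between the 2 kinds of tumor, the aP2-Cre tumors had lower levels of 5 of 8 members, where 7.69% of all genes were called lower, and the median log2 change was -0.67 against 0.01 over all genes. The 5 were Cs with a log2 change of -0.91 (limma adjusted p = 0.0044), Idh3a with -0.85 (0.0301), Idh3g with -0.62 (0.00417), Ogdh with -0.71 (0.0373) and Fh1 with -0.80 (0.0312). The changes of Suclg1 (log2 change -0.52, limma adjusted p = 0.0549), Mdh2 (-0.61, 0.0905) and Idh3b (-0.24, 0.268) did not pass. The arrays overlapped in all 8, while 2.40% of all genes had every aP2-Cre array below every Myogenin-Cre array. Against the 3 aP2-Cre tumors of their own set, 0 of 8 members passed in limma, 2 had an unadjusted p under 0.05, and all 8 log2 changes stayed below 0, between -0.72 for Cs and -0.17 for Idh3b. In that set only 12 of 11034 genes were called lower. The number of members called was 1 without Myogenin-Cre tumor 41 and 0 without tumor 43, with 4 and 6 at an unadjusted p under 0.05. Of 11034 genes, 305 and 170 were called lower in these 2 fits.

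**Figure D2:**
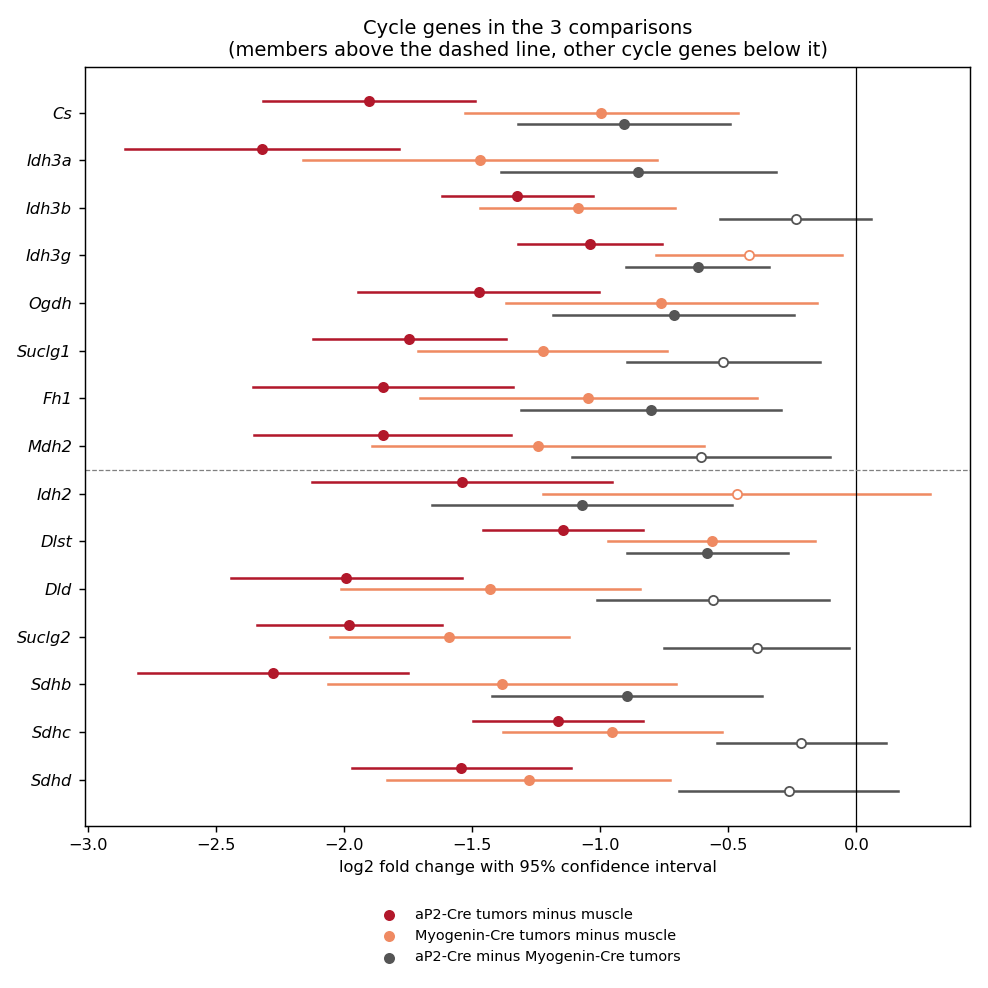
Log2 fold change (horizontal axis) with its 95% confidence interval for the 8 members and, under the dashed line, 7 other genes of the cycle, in aP2-Cre tumors minus muscle, Myogenin-Cre tumors minus muscle, and aP2-Cre minus Myogenin-Cre tumors. Filled points passed an adjusted p of 0.05 and open points did not; every change lies below 0.

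Of the 16 probes 13 passed the detection rule, among them a second, dimmer one for each of 5 members. These 5 gave the same direction as the brightest probe in all 3 comparisons, but not always the same call. Between the 2 kinds of tumor, the second probe of Fh1 gave a log2 change of -0.30 that did not pass (limma adjusted p = 0.423). That of Suclg1 gave -0.90 and passed (limma adjusted p = 0.031), while those of Idh3a, Idh3b and Idh3g kept the side of the threshold of their brightest probe. The second probe of Idh3a had a mean level of 5.56 ± 0.37 over the aP2-Cre tumors (SD, n = 15), of 6.49 ± 0.22 over the Myogenin-Cre tumors and of 8.54 ± 0.19 over the muscle samples (SD, n = 3 each). The second probe of Idh3g lay between 9.37 and 10.65 in aP2-Cre tumors, with means of 10.81 ± 0.24 in Myogenin-Cre tumors and 11.68 ± 0.04 in muscle (SD, n = 3 each), and its log2 change in Myogenin-Cre tumors against muscle, -0.87, passed (limma adjusted p = 0.0088), where the brightest probe gave -0.42. Against muscle in aP2-Cre tumors, the second probes gave log2 changes of -2.98 for Idh3a, -1.68 for Idh3g, -2.36 for Suclg1 and -2.15 for Fh1, each larger in size than that of the brightest probe, and -1.04 for Idh3b, which was smaller. A second probe of Ogdh was detected on 0 arrays and the dimmest probe of Suclg1 on 1.

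Among the 15 aP2-Cre tumors, 7 of the 8 members varied together. The 21 pairs without Idh3b had Pearson correlations of 0.24 to 0.90 with a median of 0.73, the highest between Idh3a and Idh3g and the lowest between Ogdh and Suclg1, all across the same 15 arrays. The 7 pairs with Idh3b had -0.55 to 0.20. Pairs of other genes were not set beside these. Tumors 174, 65 and 115 had the lowest mean standardized level of the members and tumors 128 and 90 the highest. Tumor 174 lay at the lowest or next lowest level in 6 of the 8 genes, while its Idh3b was above the median of the group.

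The 2 passed probes of Idh3b, which the platform annotation ties to different transcript records, correlated at r = -0.53 over the 15 tumors, while the 2 probes of Fh1, Idh3a, Idh3g and Suclg1 correlated at 0.35, 0.69, 0.75 and 0.85. With the mean standardized level of the other members the brightest Idh3b probe had r = -0.21 and the second r = 0.45. The second probe of Idh3b was not above background on tumors 104 and 174. Without these 2 tumors its probes correlated at r = 0.05 over 13 tumors, and with the other members the brightest had r = -0.03 and the second r = 0.19, so the negative correlation rested on tumors 104 and 174. This probe comparison was made after the values had been seen, and which transcript forms the probes read was not tested.

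**Figure D3:**
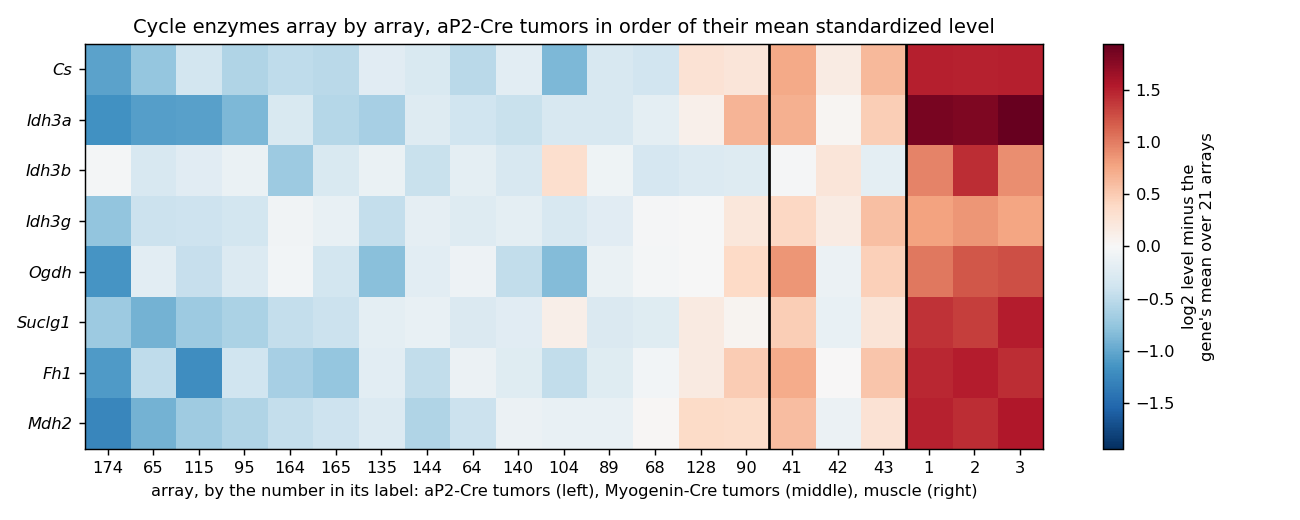
Colour gives the log2 level of each member (rows) on each of the 21 arrays (columns) minus that gene's mean over all arrays, red for higher and blue for lower. The 15 aP2-Cre tumors stand left in the order of their mean standardized member level, then 3 Myogenin-Cre tumors and 3 muscle samples; the row of Idh3b does not follow the left-to-right order of the others.

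The summed markers of muscle fibres and of brown adipocytes were also lower in both kinds of tumor than in muscle. The summed intensity of 14 muscle fibre markers (Ckm, Acta1, Mb and others) was 127499 to 236005 in aP2-Cre tumors, 200002 to 210180 in Myogenin-Cre tumors and 324840 to 329995 in muscle. Against muscle, 11 of the 14 were called lower in aP2-Cre tumors, where 29.8% of all genes were, and 6 in Myogenin-Cre tumors, where 23.9% were. Acta1, the skeletal actin, ranked 6, 8 and 9 in brightness among 11034 genes in aP2-Cre tumors, Myogenin-Cre tumors and muscle, so its log2 changes of 0.06 and 0.04 cannot show whether it changed. The summed intensity of 7 brown adipocyte markers was 5966 to 29505, 22459 to 36876 and 54667 to 58993 in the same order of groups, though Cox7a1, Cox8b and Cpt1b of that list are also known from muscle fibres. Of these 7, 5 were called lower and 1 higher in aP2-Cre tumors, where 29.8% of all genes were lower and 34.1% higher. In Myogenin-Cre tumors 2 were lower and 0 higher, beside 23.9% and 25.2% of all genes. The 1 higher was Dio2, a deiodinase, with a log2 change of 0.56 (limma adjusted p = 0.0279) against muscle samples where it was not above background, and Prdm16, a regulator of brown fat identity, had 0.05 (limma adjusted p = 0.894); both were named after their values were seen. Ucp1, the uncoupling protein that defines brown fat, was detected on 2 of 15 aP2-Cre tumors, 1 of 3 Myogenin-Cre tumors and 3 of 3 muscle samples, at a mean of 4.66, 4.93 and 11.42, and Adipoq, an adipocyte hormone, averaged 8.59, 9.12 and 11.89.

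Macrophage markers ran the other way: the summed intensity of 11 of them was 6547 to 20401 in aP2-Cre tumors, 2621 to 4382 in Myogenin-Cre tumors and 1485 to 2652 in muscle. All 11 were called higher in aP2-Cre tumors than in muscle, where 34.1% of all genes were, and 9 of 11 higher than in Myogenin-Cre tumors, where 8.08% were. Summed intensities of the erythroid list (3 genes) were 1700 to 30827, 13455 to 23445 and 31442 to 39766, of the Schwann cell list (4 genes) 1100 to 3027, 2037 to 2659 and 3146 to 3203, and of the white adipocyte list (8 genes) 10833 to 23404, 14540 to 24760 and 31911 to 32660. The endothelial list (8 genes) had 6595 to 10275, 8562 to 10479 and 6696 to 7788, the lymphocyte list (4 genes) 114 to 939, 94 to 200 and 125 to 152, and the proliferation list (8 genes) 439 to 1410, 551 to 1221 and 328 to 399. The part of these cells in the levels of the cycle enzymes was not tested.

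Over the 15 aP2-Cre tumors the members were related to 3 of these lists, each summarised as the mean standardized level of its genes (24 relations, 100000 permutations, two-sided, Benjamini-Hochberg). The brown adipocyte list includes Ucp1, which was detected on only 2 of these 15 tumors. It also includes Cox7a1, Cox8b and Cpt1b, which are known from muscle fibres too, so it does not read brown adipocytes alone. With the muscle fibre list 6 of 8 members passed by Pearson's r and 7 by Spearman's rho, with the brown adipocyte list 5 and 5, and with the macrophage list 7 and 5. No share over all genes was set beside these counts, so they do not show whether such relations are particular to the members. Idh3a had r = 0.85 with muscle fibre markers (permutation p = 0.00011, adjusted p = 0.0006; rho = 0.84, permutation p = 0.00015, adjusted p = 0.00162). Its relation to brown adipocyte markers was r = 0.83 (permutation p = 0.00015, adjusted p = 0.0006; rho = 0.84, permutation p = 0.00023, adjusted p = 0.00162), and to macrophage markers r = -0.83 (permutation p = 8e-05, adjusted p = 0.0006; rho = -0.81, permutation p = 0.00035, adjusted p = 0.00168).

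Without the 2 tumors farthest from the median of each list (115 and 65 for muscle fibre, 115 and 174 for the others), Idh3a kept r = 0.83, 0.84 and -0.77, and after centring within the 5 sets r = 0.88, 0.88 and -0.85. Among the relations that passed, that of Fh1 to the brown adipocyte list moved most, with r = 0.78 over 15 tumors and 0.50 without those 2. Idh3b did not pass with any of the 3 lists, with r = -0.31, -0.11 and 0.19 (permutation p = 0.252, 0.673 and 0.486; adjusted p = 0.275, 0.673 and 0.507) and rho = -0.48, -0.22 and 0.26 (permutation p = 0.0741, 0.434 and 0.344; adjusted p = 0.089, 0.434 and 0.359). The lists were themselves related over these tumors, at r = 0.88 between muscle fibre and brown adipocyte markers, -0.79 between muscle fibre and macrophage markers and -0.80 between brown adipocyte and macrophage markers.

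**Figure D4:**
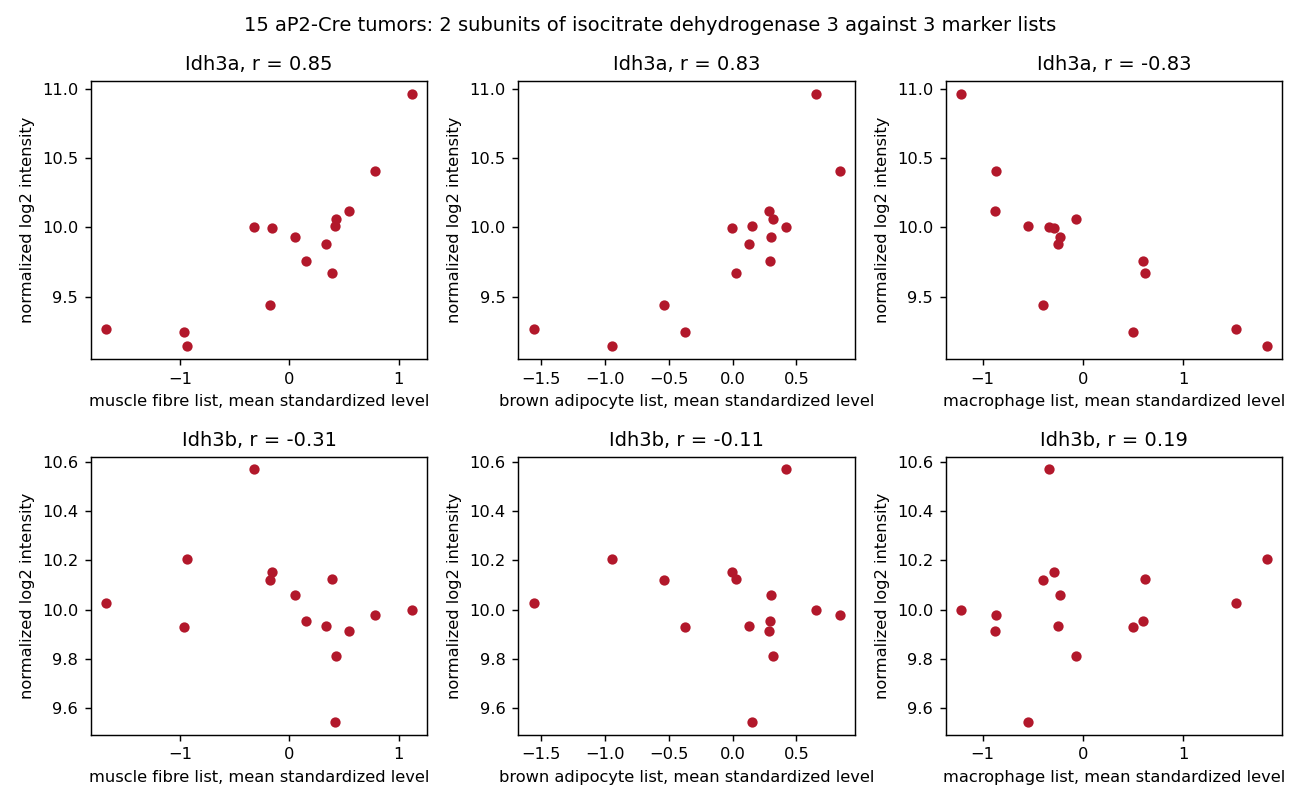
Normalized log2 level of Idh3a (upper row) and Idh3b (lower row) against the mean standardized level of the muscle fibre, brown adipocyte and macrophage marker lists in 15 aP2-Cre tumors, 1 point a tumor. Idh3a follows the first 2 lists upward and the macrophage list downward, with Pearson r of 0.85, 0.83 and -0.83. Idh3b has -0.31, -0.11 and 0.19. The brown adipocyte list shares genes with muscle fibres, and its Ucp1 was detected on 2 of the 15 tumors.

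Other genes of the cycle were also lower in tumors. Of these, 7 were tested, and Sdha did not pass the detection rule. All 7 fell in aP2-Cre tumors against muscle: the succinate dehydrogenase subunits Sdhb with a log2 change of -2.28, Sdhc with -1.17 and Sdhd with -1.54, the dehydrogenase components Dld with -1.99 and Dlst with -1.14, the GDP-forming ligase subunit Suclg2 with -1.98, and the NADP-dependent Idh2 with -1.54. In Myogenin-Cre tumors 6 of 7 fell, by log2 changes of -1.59 for Suclg2 to -0.56 for Dlst, and Idh2 had -0.47 (limma adjusted p = 0.299). Between the tumors 3 of 7, Idh2 with -1.07, Dlst with -0.58 and Sdhb with -0.89, were lower in aP2-Cre tumors, and 0 of 7 within the shared set (limma, 2 at an unadjusted p under 0.05). Within that set only 12 of 11034 genes were called lower. Of all genes, 29.8% were called lower in aP2-Cre tumors and 23.9% in Myogenin-Cre tumors, against muscle. Between all arrays of the 2 kinds of tumor the share was 7.69%.

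At the entry from pyruvate, 9 of 11 tested genes fell and 1 rose in both kinds of tumor against muscle, where 29.8% of all genes were called lower and 34.1% higher in aP2-Cre tumors, and 23.9% lower and 25.2% higher in Myogenin-Cre tumors. The same shares apply to the lists that follow. In aP2-Cre against Myogenin-Cre tumors, 7.69% of all genes were called lower and 8.08% higher, for this list and those that follow. Pcx, pyruvate carboxylase, had log2 changes of -2.61 in aP2-Cre and -2.51 in Myogenin-Cre tumors, Dlat, the acetyltransferase of the pyruvate dehydrogenase complex, -2.21 and -1.51, and Pdp1, the phosphatase that activates the complex, -1.10 and -1.26. Pdk3, a kinase that inhibits the complex, rose by 2.03 and 1.87 on the log2 scale. Pdk4, another of those kinases, was lower in aP2-Cre than in Myogenin-Cre tumors with a log2 change of -2.08 (limma adjusted p = 0.0142), as were Dlat with -0.71 and Pdpr, a regulator of the phosphatase, with -0.66.

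Of the cytosolic and side reactions, 9 of 13 fell and 1 rose in aP2-Cre tumors, and 9 fell and 0 rose in Myogenin-Cre tumors. Gpt2, an alanine aminotransferase of mitochondria, had log2 changes of -2.18 and -1.15, Oxct1, which activates ketone bodies, -1.40 and -1.86, Ldha, a lactate dehydrogenase subunit, -1.38 and -1.42, and Idh1, the cytosolic NADP-dependent enzyme, -1.16 and -1.07. Me2, a malic enzyme of mitochondria, rose by 0.67 on the log2 scale in aP2-Cre tumors, and its change of 0.35 in Myogenin-Cre tumors did not pass. Oxct1 was higher in aP2-Cre than in Myogenin-Cre tumors by a log2 change of 0.46, while Gpt2, with -1.04, and Got2, an aspartate aminotransferase, with -0.46, were lower.

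Of 7 mitochondrial carriers 5 fell and 1 rose in each kind of tumor. Slc25a12, a carrier of aspartate and glutamate, had log2 changes of -2.71 in aP2-Cre and -1.91 in Myogenin-Cre tumors, Slc25a20, the carnitine carrier, -1.93 and -0.69, Slc25a11, the oxoglutarate carrier, -1.41 and -0.77, and Slc25a1, the citrate carrier, -1.57 and -1.82. Slc25a5, an exchanger of ADP and ATP, rose by 1.11 and 1.31 on the log2 scale. Slc25a20, with a log2 change of -1.24, and Slc25a11, with -0.63, were lower in aP2-Cre than in Myogenin-Cre tumors.

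Regulators of mitochondrial genes moved in both directions: 7 of 13 fell and 2 rose in aP2-Cre tumors, and 6 fell and 2 rose in Myogenin-Cre tumors, against muscle. Ppara, a nuclear receptor of fatty acid oxidation, was not above background in any tumor and averaged 6.19 in muscle, so it was at least 1.92-fold lower in aP2-Cre and at least 1.76-fold lower in Myogenin-Cre tumors (limma adjusted p = 2.32e-11 and 7.22e-09; measured means 4.45 and 4.50). These bounds set the muscle mean against the mean, over tumor arrays, of the higher of the lowest detected signal and the probe's own. Tfam and Tfb2m, which start transcription of mitochondrial DNA, had log2 changes of -0.99 and -0.80 for Tfam and -0.97 and -1.05 for Tfb2m. Nrf1, whose core motif is in the Ogdh window printed above, rose by 0.82 and 0.91 on the log2 scale, and Pprc1, a coactivator, by 0.70 and 0.59. Gabpa, the DNA-binding subunit of GABP, had log2 changes of -0.11 and -0.30 that did not pass. Esrra, a receptor that binds the ERR site, fell, with log2 changes of -1.28 and -1.02. Its relatives Esrrb, with -0.60 and -0.20, and Esrrg, with -0.54 and -0.52, did not pass in either comparison. Yy1 did not pass the detection rule. Between the 2 kinds of tumor 0 of 13 passed in limma.

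Other mitochondrial proteins were lower too. Of 16 tested, 15 fell in aP2-Cre tumors and 10 in Myogenin-Cre tumors, with median log2 changes of -0.89 and -0.59, beside -1.80 and -1.07 for the cycle enzymes; the difference between the lists was not tested. Vdac3, a pore of the outer membrane, had log2 changes of -1.65 and -1.25, and the chaperonins Hspd1, with -1.03 and -0.87, and Hspe1, with -1.22 and -1.30, fell too. Timm44, of the import motor, had -0.94 and -0.52. Between the tumors 3 of 16 were lower in aP2-Cre tumors: Phb2, a prohibitin, with a log2 change of -0.51, Timm44 with -0.42, and Tomm22, of the import pore, with -0.86.

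**Figure D5:**
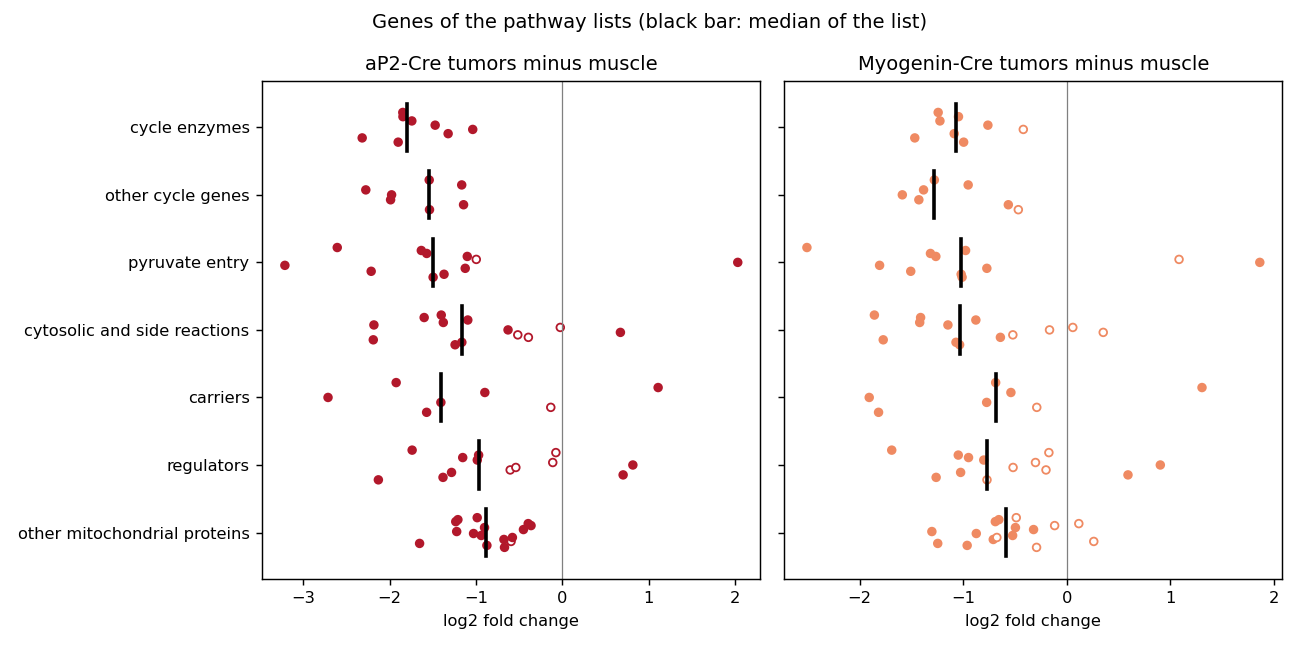
Log2 fold change (horizontal axis) of each tested gene of the cycle enzymes and 6 pathway lists (rows), in aP2-Cre tumors minus muscle (left) and Myogenin-Cre tumors minus muscle (right); both use the same muscle arrays. Filled points passed an adjusted p of 0.05, and the black bar is the median of the list, which lies below 0 in every row, at -1.80 and -1.07 for the cycle enzymes.

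The genes whose pattern over the 15 aP2-Cre tumors was most like the mean standardized level of the 8 members were taken by Pearson's r among 11026 other genes. Cyc1, the cytochrome of respiratory complex III, came first at r = 0.96, followed by Uqcrc1, a core subunit of the same complex, at 0.95, and Ndufa8, a complex I subunit, at 0.94. Plekhb1 and Adsl, an enzyme of purine synthesis, each had 0.94, Tmem52, Slc25a12 and Aldoa, the aldolase of glycolysis, 0.93, and Vegfb, a vascular growth factor, and Uqcrc2, the other core subunit of complex III, 0.92. After centring within sets these r lay between 0.90 and 0.95. All 10 were also called lower in aP2-Cre tumors than in muscle, where 29.8% of all genes were, by log2 changes of -3.35 for Tmem52 to -1.16 for Uqcrc2. The points share the arrays from which the members were read.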

How the data were processed

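RNA extracted with Trizol, cleaned on RNeasy columns with DNase I and copied to biotin-labelled cRNA was read on Illumina bead arrays, per the labels' protocols. The submitters' processing notes list BeadStudio, with no version. The deposited table used here holds 1 linear intensity, not background-subtracted (array minima 95.3 to 122), and 1 detection p-value per probe, per the file headers. The authors' second deposited table, an intensity taken as normalized in 5 sets by its shared highest values, was an alternative. Which genome build and annotation were used was not given in these sources.

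Intensities were corrected with normexp from the detection p-values, with an offset of 16, and quantile normalized (neqc, limma 3.58.1, R 4.3.3). Probes needed a detection p under 0.01 on 3 arrays (19655 of 45281), 1 gene symbol (34885 have 1, 18 several, 10378 none; 34807 matched RefSeq), and were the brightest of their gene, which left 11034 genes. Differences were tested with limma (trended eBayes, two-sided, 1 model of 3 groups, Benjamini-Hochberg over all genes, threshold 0.05); the fit was tested on simulated data. The members and all gene lists were chosen with earlier results of these data known. Named were all members and other cycle genes, up to 3 called genes of each pathway list per direction and comparison with the smallest adjusted p, marker genes that define a list, the factors of the searched motifs, and the 10 genes most like the members. Alternatives covered background correction, offset, normalization, the authors' values, detection filter, probe choice, array weights, set of arrays and arrays left out; leaving out aP2-Cre tumors and second probes of subunits were added after the data were seen. The number 42 alone tied 1 column with transposed letters to its Myogenin-Cre tumor. The highest correlation between 2 arrays of a group over all genes was 0.989, and no array was counted as a repeat of another.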

Additional observations from a re-analysis of the deposited data

Results flagged for a closer look

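The 5 members below differed between the 2 kinds of tumor under the same contrast with muscle. Both contrasts share the muscle arrays, so the test of the difference is the direct comparison of aP2-Cre with Myogenin-Cre tumors in the limma fit over all genes. The log2 change was -0.91 for Cs (adjusted p = 0.0044), with 13 of 15 aP2-Cre tumors below every Myogenin-Cre tumor. It was -0.85 for Idh3a (adjusted p = 0.0301, 13 of 15), -0.62 for Idh3g (adjusted p = 0.00417, 14 of 15), -0.71 for Ogdh (adjusted p = 0.0373, 10 of 15) and -0.80 for Fh1 (adjusted p = 0.0312, 13 of 15). The second probe of Fh1 had a log2 change of -0.30 that did not pass (limma adjusted p = 0.423).

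In the normalization set that holds the Myogenin-Cre and 3 of the aP2-Cre tumors, the log2 changes were -0.72 for Cs, -0.58 for Idh3a, -0.50 for Idh3g, -0.40 for Ogdh and -0.46 for Fh1, and none of these 5 passed (limma adjusted p 0.235 to 0.483). In that set, 45 of all 11034 genes passed. The part of the set and of the few arrays in this was not tested.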

How the results depend on the processing

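Over 568 combinations of a member, comparison and alternative, 513 kept direction and side of the threshold, 40 kept the direction and lost the call, 15 gained it and 0 reversed. Against muscle, the members called lower in aP2-Cre tumors numbered 8 to 9 over 10 alternatives, the 9 with no detection filter, where Sucla2 was tested too, and 8 without any 1 array. In Myogenin-Cre tumors they numbered 6 to 8 over 9 alternatives and 5 to 7 without 1 array. Other cycle genes called lower without 1 array numbered 7 to 7 and 5 to 6, and all genes called 6183 to 7081 and 4622 to 5057.

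Between the tumors, the 5 members and 3 other cycle genes called lower became 0 and 0 with median centring, with the authors' values, with the set as a covariate and within the shared set (limma; 4, 6, 2 and 2 members and 2, 4, 3 and 2 other cycle genes at an unadjusted p under 0.05), and other cycle genes became 5 with array weights. All genes called, 1741, became 529 with the authors' values, 3099 with array weights, 409 with the set as a covariate and 45 within the shared set. Without 1 array these counts were 0 to 7, 0 to 4 and 367 to 2189; without Myogenin-Cre tumor 41 they were 1, 0 and 616, and without tumor 43 they were 0, 0 and 367. The shared set has fewer arrays; other causes were not tested. In Myogenin-Cre tumors against muscle, Fh1 lost its call without tumor 42 and Ogdh in 7 of 15 alternatives, given beside it. Idh3g passed in that comparison in 4 of 15 alternatives (lowest limma adjusted p = 0.0101), among them without tumor 43 (adjusted p = 0.0321). Between the tumors, over 28 alternatives, Suclg1 gained its call in 7, Mdh2 in 3 and Idh3b in 1 (lowest limma adjusted p 0.00376, 0.00797 and 0.0363). Of arrays left out, Suclg1 passed without Myogenin-Cre tumor 42 or without aP2-Cre tumor 128, 90 or 104, and Mdh2 without 128 or 90 (adjusted p 0.0256 to 0.0497). Members called lower numbered 7 with array weights, and 6 with detection on at least 12 arrays or with the mean of a gene's probes.

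Median centring moved the median of all genes to 0.44 in aP2-Cre tumors against muscle, 0.25 in Myogenin-Cre tumors against muscle and 0.17 between the tumors, and raised the share of higher among all calls to 74.6%, 67.8% and 82.1%, beside 53.3%, 51.2% and 51.2%; members had medians of -1.76, -1.09 and -0.57. That share was 39.1% between the tumors with the authors' values and 73.3% of 45 calls within the shared set. The subunit differences kept their side of the threshold in all alternatives run for them, which covered normalization, detection filter and probe choice, second probes included. The set as a covariate and array weights were not run for them, since they have no exact test. They were also not run with an array left out or within a set, so their dependence on single arrays was not tested. Sucla2 pairs were not computed. No paired analysis was possible because the numbers in the labels are not shared between groups. Precision is limited by the few arrays, 3 in muscle and 3 Myogenin-Cre tumors, and bright probes such as that of Idh3g may understate a change.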
